A study of Homo sapiens with 6 samples.

Results

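The genes described here are 8 members of the aryl hydrocarbon receptor (AHR) pathway and its locus on chromosome 5, namely AHR, AHRR, PDCD6, PDCD6-AHRR, ARNT, CYP1A1, CYP1B1, and TIPARP. They were chosen by gene symbol from the 46427 genes of the expression table, and the choice was made with the change of some of them after siRNA treatment already known. All 8 members had reads in at least 3 libraries, and 6 of 8 were read in each of the 6 libraries. The exceptions were PDCD6-AHRR, which had no read in any control, and AHRR, which had no read in 1 si-MALAT1 library.

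RNA-seq was performed on the human non-small cell lung cancer (NSCLC) cell lines H460, H1299, and A549, each as a control library labelled as non-treated and as a library of cells transfected with siRNA against MALAT1 (si-MALAT1). MALAT1 is an abundant nuclear long non-coding RNA, and the study asked which genes change when it is depleted. The methods name negative control cells as well as si-Control cells without saying which of them was sequenced, so the effect of transfection itself cannot be told apart from that of MALAT1 depletion. Each line gave 1 library per condition, and the 3 pairs are 3 different established cell lines rather than repeats of 1 line.

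Total read counts were 42506818 to 68515992 per library, lowest in the A549 pair. MALAT1 itself was lower after si-MALAT1 in 3 of 3 cell lines, with a log2 fold change of -2.84 in A549, -2.32 in H460, and -2.96 in H1299. All 5 epithelial markers were read. Their summed level was 639 to 6174 CPM (counts scaled to library size) in controls and 581 to 2873 after si-MALAT1. KRT8 and KRT18 had at least 11408 and 20233 reads per library, and EPCAM had 23 to 485. CDH1 had 13 and 11 reads in the H460 pair, 2 and 12 in the H1299 pair, and 4693 and 7373 in the A549 pair. KRT19 had 44567 and 33570, 21 and 17, and 44 and 121 in the same order. The leukocyte markers PTPRC and CD3E and the endothelial marker CDH5 were at 0 in all 6 libraries. The third leukocyte marker, CD68, which is not limited to leukocytes, had 624 to 4045 reads per library, and the endothelial markers PECAM1 and VWF had at most 8 and 33 reads. Summed over each list, leukocyte markers stood at 20.3 to 53.3 CPM in controls and 13.6 to 66.5 after si-MALAT1, and endothelial markers at 0 to 0.616 and 0.130 to 0.674. The fibroblast markers summed to 0.857 to 6.28 CPM in controls and 2.87 to 10.2 after si-MALAT1. Of the lung lineage markers, NKX2-1 had no read in H460 and A549. CDKN2A, which is deleted in A549, had no read there or in H460, and 2938 and 2679 reads in H1299.

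AHR is a ligand-activated transcription factor of the basic helix-loop-helix PAS family that senses dioxins, polycyclic aromatic hydrocarbons of tobacco smoke, and tryptophan metabolites. In the resting cell it is held in the cytosol by heat shock protein chaperones, and after binding a ligand it enters the nucleus, pairs with ARNT, and binds the xenobiotic response element. CYP1A1 and CYP1B1, which oxidise aromatic hydrocarbons, and TIPARP and AHRR, which both dampen the receptor, are well known targets, and in lung the pathway is known for its response to smoke. PDCD6 encodes a calcium-binding protein and is the upstream neighbour of AHRR.

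PDCD6-AHRR is annotated as a readthrough transcript that starts in PDCD6 and continues into AHRR. The annotation of the deposited files places PDCD6 on GRCh38 at chr5:271621-314974, AHRR at chr5:321714-438285, and PDCD6-AHRR at chr5:271646-438285, all on the plus strand. PDCD6-AHRR is a long non-coding gene model with 2 transcripts, of 14 and 13 exons, and no coding sequence. A splice junction of each of the 3 gene models is shown, at the place where PDCD6-AHRR passes from PDCD6 into AHRR, because these junctions differ between the models. Other junctions that are not shown differ as well. Each is 20 bases of the upstream exon in lower case and 20 bases of the downstream exon in capitals, read from the GRCh38 sequence.
PDCD6-AHRR: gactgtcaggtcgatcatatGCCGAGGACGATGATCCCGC
PDCD6: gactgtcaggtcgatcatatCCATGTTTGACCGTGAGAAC
AHRR: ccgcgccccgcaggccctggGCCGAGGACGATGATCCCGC

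The readthrough junction joins the PDCD6 exon at chr5:304177-304221 to the AHRR exon at chr5:343893-343964, across 39.7 kb. PDCD6 joins the same upstream exon to its own next exon at chr5:306602-306754, and the bases shown before that junction are PDCD6 coding sequence. AHRR, in 1 of its 2 transcripts, joins a first exon at chr5:321714-321819 to the same downstream exon, of which 10 of the 20 bases shown are coding in AHRR. Of the 5892 exon bases of PDCD6-AHRR, 5555 (94.3%) are also AHRR exon bases, 283 (4.8%) are PDCD6 exon bases, and 54 (0.92%) are in neither. In the other direction, 97.2% of the exon bases of AHRR lie within PDCD6-AHRR. Most reads from AHRR exons can therefore be assigned to either gene model, and counts per gene do not show which junctions were read.

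Promoter windows of 3 known AHR targets are shown because AHR with ARNT is known to bind the core letters GCGTG, the centre of the xenobiotic response element. The sequences are from RefSeq (GRCh38.p14), 100 bases each in the direction of the gene, and capitals mark the core on either strand, where CACGC is the same core on the opposite strand. The AHRR window is chr5:321614-321713 on the plus strand, the CYP1A1 window is chr15:74725536-74725635 on the minus strand, and the TIPARP window is chr3:156674365-156674464 on the plus strand.
AHRR: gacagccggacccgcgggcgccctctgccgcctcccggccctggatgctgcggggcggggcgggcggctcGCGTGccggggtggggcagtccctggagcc
CYP1A1: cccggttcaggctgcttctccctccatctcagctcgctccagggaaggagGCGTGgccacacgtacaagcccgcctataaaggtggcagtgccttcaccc
TIPARP: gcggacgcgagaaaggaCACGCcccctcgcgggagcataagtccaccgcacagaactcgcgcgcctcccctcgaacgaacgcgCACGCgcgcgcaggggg

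Windows from 250 bases before to 50 after a start site were matched by symbol for 7 of 8 members, CYP1B1 being the exception. GCGTG, counted on both strands with overlapping matches included, was present in 36.5% of all 35116 windows of that length. AHR, CYP1A1, and the shared window of PDCD6 and PDCD6-AHRR each held 1 copy. The 2 AHRR windows held 1 and 2 copies, the first of 3 TIPARP windows held 2 copies and the others 0, and the ARNT window held 0. Windows with 2 or more copies made up 12.7% of all windows. A match describes only the letters of the window.

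Before and after si-MALAT1, PDCD6-AHRR had 0 and 62 reads in the H460 pair, 0 and 428 in the H1299 pair, and 0 and 78 in the A549 pair. All 3 controls were thus at 0 and all 3 si-MALAT1 libraries were above 0. With the control set to a floor of 3 counts, the scaled count was 156-fold higher in H1299, 23.5-fold higher in A549, and 21.9-fold higher in H460. These folds leave out the counting error of the si-MALAT1 count and the assignment of reads between the overlapping gene models. The pattern of 0 in controls and reads after si-MALAT1 is what drew attention to the gene, so it is given as a description with no test. Across the table, 47 genes were at 0 in the 3 controls and read in the 3 si-MALAT1 libraries, and 43 genes showed the reverse. PDCD6-AHRR was the only 1 of these 47 with at least 50 reads in every si-MALAT1 library, and none of the 43 had at least 50 reads in every control. This rank rests on the same reads that drew attention to the gene, so it adds no support. Of the 168 readthrough genes with a read, 56 (33.3%) were at 0 in at least 1 library, beside 43.1% of all genes with a read.

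AHRR, the repressor that competes with AHR for ARNT, had 276 control reads in H460 against 271 after si-MALAT1. In H1299 the counts were 591 and 353, and in A549 they were 120 and 0. AHRR was therefore at nearly the same count in H460, lower in H1299, and listed at 0 in A549 after si-MALAT1. The log2 fold change, taken on RLE-scaled counts plus 1, was 0.05 in H460 with an exact 95% counting interval of -0.19 to 0.30, and -0.61 in H1299 with an interval of -0.81 to -0.42. In A549 the scaled count after si-MALAT1, set to the floor of 3 counts, was 44.2-fold lower. This fold leaves out the counting error of the control and the assignment of reads between the overlapping gene models. These intervals, like the others given here, cover counting error only, because 1 library per cell line and condition gives no spread between repeats.

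PDCD6-AHRR reads were present in every si-MALAT1 library, while AHRR was lower in H1299 and A549 and near its control count in H460. The 2 gene models share most of their exon bases. PDCD6-AHRR took 18.6% of the 333 reads assigned to either model in H460 after si-MALAT1, with an exact 95% interval of 14.6 to 23.2%. The share was 54.8% of 781 reads in H1299 (51.2 to 58.3%) and 100% of 78 reads in A549 (95.4 to 100%). In the controls the share was 0, with exact 95% intervals that reached 3.03% in A549, 1.33% in H460, and 0.622% in H1299. A floor of 3 counts allows 2.5%, 1.09%, and 0.508% in the same order. These intervals and limits treat each read as assigned independently of the others. They do not cover error in the assignment between the 2 models, so they do not bound the true share of readthrough RNA.

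With the reads of both models summed, a step added after seeing the data, H460 cells went from a count of 276 to 333, H1299 cells from 591 to 781, and A549 cells from 120 to 78. For the sum, H460 cells had a log2 fold change of 0.35 (interval 0.12 to 0.59), H1299 cells of 0.53 (0.38 to 0.69), and A549 cells of -0.76 (-1.20 to -0.34). The direction in H1299 was therefore opposite for AHRR alone and for the sum, while A549 remained lower on both. The part of read assignment between the overlapping models in these values was not tested, since counts per gene do not separate them.

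**Figure D1:**
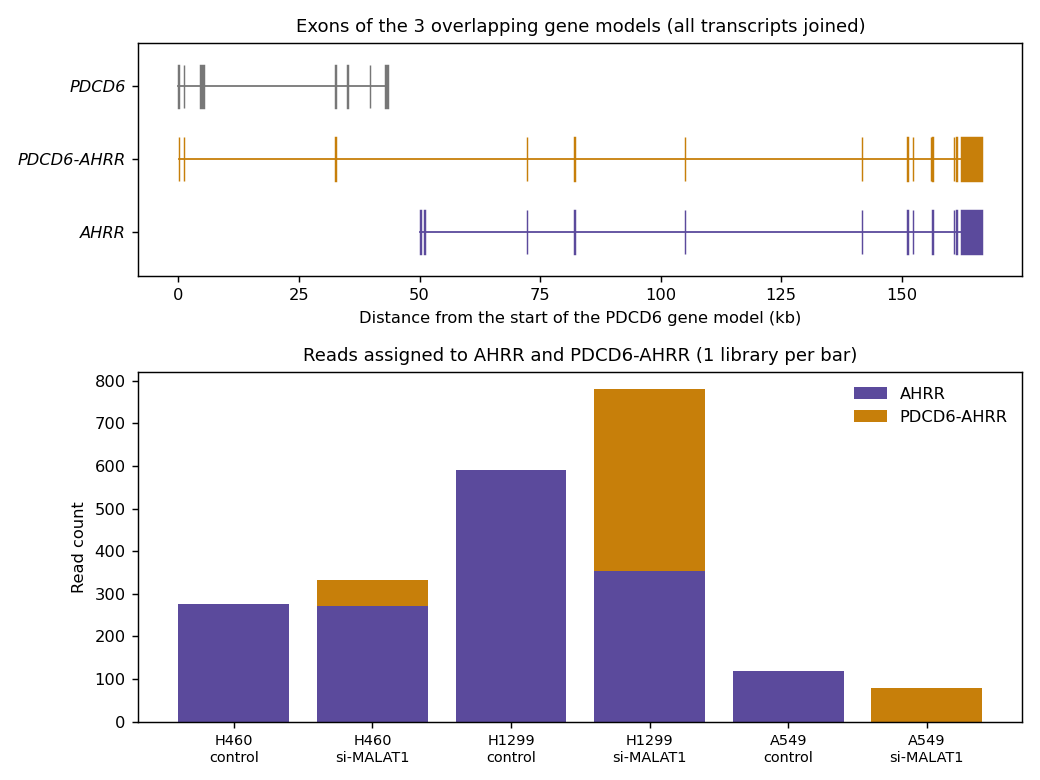
The upper panel draws the exons of PDCD6, PDCD6-AHRR, and AHRR by distance in kb from the start of PDCD6, and the lower panel stacks the read counts of AHRR and PDCD6-AHRR in each library, 1 library per bar. The readthrough model carries nearly all AHRR exons, and its reads appear only in the 3 si-MALAT1 bars, where they are 62, 428, and 78.

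PDCD6, whose start the readthrough model shares, had 5503 and 5818 reads in H460 cells, 6732 and 6193 in H1299 cells, and 4290 and 4602 in A549 cells. These gave log2 fold changes of 0.16, 0.01, and -0.04, with a mean of 0.04 ± 0.11 (SD, n = 3 cell lines). PDCD6 thus stayed near its control level in each cell line while PDCD6-AHRR went from 0 to a count. The reads of all 3 gene models summed gave a mean log2 fold change of 0.06 ± 0.12 (SD, n = 3), because PDCD6 holds most of them. Within 500 kb of AHRR lay 33 genes, of which 15 had a mean count of at least 50 and a read in every library. None of these 15 was higher in all 3 cell lines, and SLC9A3, CEP72, LOC101928768, and BRD9 were lower in all 3, with SLC9A3 at log2 fold changes of -0.31, -0.80, and -0.40. Across all 17834 genes read in the 6 libraries, 21.4% were higher and 18.8% lower in all 3 by sign.

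AHR, at chr7:17298652-17346147, had 23512 control reads in H460 against 21726 after si-MALAT1. The counts were 3387 and 4505 in H1299, and 6883 and 10919 in A549. AHR was therefore higher after si-MALAT1 in H1299 and A549 and close to its control in H460. H460 cells had a log2 fold change of -0.03 (interval -0.06 to -0.01), H1299 cells of 0.54 (0.48 to 0.61), and A549 cells of 0.52 (0.48 to 0.56), with a mean of 0.34 ± 0.33 (SD, n = 3) that was 0.53 without H460. In level per transcript length, AHR stood at 64.6 and 57.5 TPM in the H460 pair, at 9.40 and 14.3 TPM in the H1299 pair, and at 31.5 and 44.9 TPM in the A549 pair. In bulk RNA such as this, fewer cells that express a gene and less RNA per cell cannot be told apart.

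ARNT, the partner that AHR needs to bind DNA, lies at chr1:150809713-150876737 on the minus strand. The H460 pair had 3553 and 2995 reads, the H1299 pair 2871 and 3373, and the A549 pair 1906 and 2173. ARNT was lower in H460, higher in H1299, and within counting error of its control in A549. In that order the pairs gave log2 fold changes of -0.16 (interval -0.24 to -0.09), 0.36 (0.29 to 0.44), and 0.04 (-0.05 to 0.13), with a mean of 0.08 ± 0.27 (SD, n = 3). The mean was smaller than its spread, at 0.20 without H460 and -0.060 without H1299.

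CYP1B1, at chr2:38067509-38076151 on the minus strand, had 35654 and 35351 reads in the H460 pair, 2317 and 6061 in the H1299 pair, and 6670 and 9096 in the A549 pair. It was the only member read in every library whose scaled count was higher in 3 of 3 cell lines. In H460, however, its TPM went the other way, from 117 to 112. The median log2 fold change over all genes in H460 was 0.02 on scaled counts and -0.07 on log2(TPM + 1). The part of scaling in the CYP1B1 value was not tested. H1299 cells had a log2 fold change of 1.52 (interval 1.45 to 1.59), A549 cells of 0.30 (0.26 to 0.35), and H460 cells of 0.07 (0.05 to 0.09). The mean of 0.63 ± 0.78 (SD, n = 3) was smaller than its spread and was 0.19 without H1299, where the level went from 7.70 to 23.1 TPM. CYP1B1 shares 33.3% of its exon bases with RMDN2 on the opposite strand, which had 168 to 347 reads per library, and whether counting used strand is not given in the sources used here.

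CYP1A1, the enzyme most used as a readout of AHR activity, lies at chr15:74719542-74725528 on the minus strand. The H460 pair had 13 and 13 reads, the H1299 pair 347 and 287, and the A549 pair 18 and 10. It was thus barely read in H460 and A549 and more in H1299, and the fewest reads after si-MALAT1 relative to control were in A549. H460 cells had a log2 fold change of 0.08 (interval -1.15 to 1.31), H1299 cells of -0.14 (-0.37 to 0.09), and A549 cells of -0.94 (-2.27 to 0.20). Each interval included 0, so a difference of CYP1A1 was not detectable at this depth in any cell line.

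TIPARP, at chr3:156674590-156706770, encodes an ADP-ribosyltransferase that marks AHR for degradation. The H460 pair had 1418 and 1311 reads, the H1299 pair 9795 and 11156, and the A549 pair 2353 and 2446. TIPARP was higher after si-MALAT1 in H1299 and near its control in the other lines. In that order these gave log2 fold changes of -0.03 (interval -0.14 to 0.08), 0.32 (0.28 to 0.36), and -0.09 (-0.17 to -0.01), with a mean of 0.07 ± 0.22 (SD, n = 3) that was -0.060 without H1299. It shares 15.4% of its exon bases with TIPARP-AS1 on the opposite strand, which had 55 to 176 reads.

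**Figure D2:**
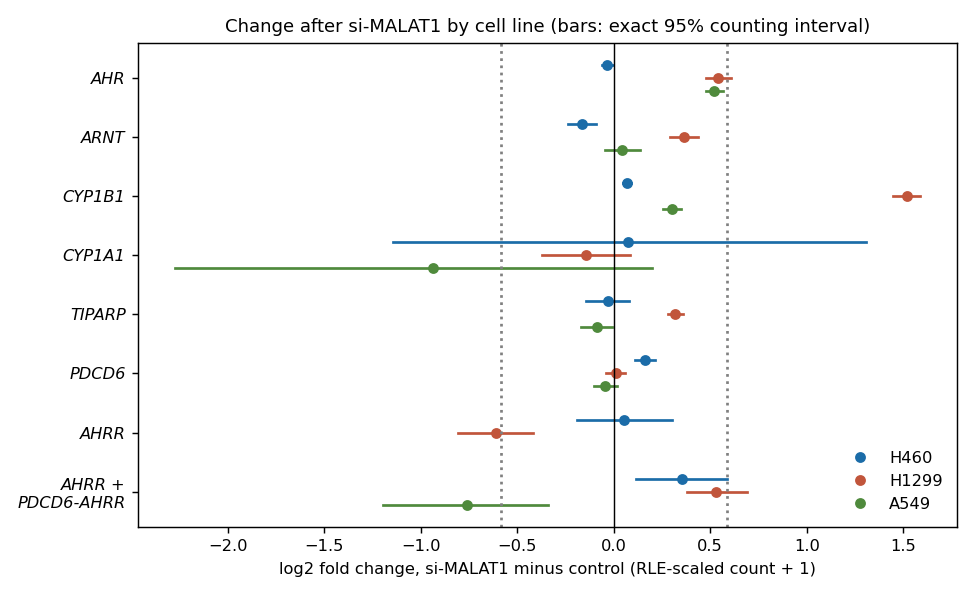
Points are log2 fold changes (si-MALAT1 minus control, horizontal axis) of 7 members and of the AHRR and PDCD6-AHRR sum in H460, H1299, and A549, with bars for the exact 95% counting interval and dotted lines at a fold of 1.5. CYP1B1 in H1299 lies farthest to the right at 1.52, AHRR has no point in A549 because its count after si-MALAT1 was 0, and PDCD6-AHRR alone is not drawn because its controls were at 0.

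A fold of 1.5 was also counted across all 17834 genes read in the 6 libraries, as the background for the members. None of the 6 members read in all libraries passed it the same way in 3 cell lines, against 2.47% of all genes. In H460 none of these 6 passed in either direction, against 9.5% of all genes higher and 10.3% lower. In H1299 CYP1B1 was the 1 member of these 6 higher and none of them was lower, against 11.7% and 11.4% of all genes. AHRR, which was not among the 6 because of its count of 0 in A549, was past the fold in H1299 as well, at the log2 value of -0.61 given above. With its controls set to the floor of 3 counts, PDCD6-AHRR was past it in each cell line. In A549 none of these 6 was higher and CYP1A1 was the 1 lower, with an interval that included 0, against 11.5% and 11.4% of all genes. The A549 value of AHRR, set to that floor after si-MALAT1, was past the fold too. Since the members were chosen with this contrast known, nothing further is read from them.

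The level of 7 members across cell lines was not used to choose them and was tested with edgeR's quasi-likelihood F-test, with Benjamini-Hochberg adjustment over 19122 genes and treatment as a covariate. Each cell line has 2 libraries here, 1 of each condition, so p-values measure the spread between these libraries. AHR, CYP1A1, CYP1B1, and TIPARP passed an adjusted p of 0.05, and AHRR, PDCD6, and ARNT did not. These 4 of 7 members are 57.1%, beside 64.3% of all genes. PDCD6-AHRR was left out of this count because its controls were all at 0 and its reads in the si-MALAT1 libraries were what chose it.

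AHR was highest in H460, intermediate in A549, and lowest in H1299, at 61.1 ± 5.06, 38.2 ± 9.45, and 11.9 ± 3.48 TPM (SD, n = 2 libraries). Every pair of neighbours in that order differed by edgeR's quasi-likelihood test, with a log2 difference of -0.997 ± 0.19 (SE) for A549 minus H460 (adjusted p = 0.00821) and 1.75 ± 0.19 for A549 minus H1299 (adjusted p = 0.000769). H1299 minus H460 was -2.75 ± 0.20 (adjusted p = 0.000140). Across all genes, 38.2%, 48.9%, and 52.6% passed in these 3 pairs.

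CYP1B1 followed the same order as AHR, at 115 ± 3.79 TPM in H460, 40.7 ± 5.78 in A549, and 15.4 ± 10.9 in H1299 (SD, n = 2). The log2 differences by edgeR's quasi-likelihood test were -1.81 ± 0.35 (SE) for A549 minus H460 (adjusted p = 0.00900) and 1.60 ± 0.35 for A549 minus H1299 (adjusted p = 0.0111). The wide SD in H1299 is the pair of 7.70 and 23.1 TPM given above.

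TIPARP had the opposite order, with 50.4 ± 9.40 TPM in H1299, 16.7 ± 0.93 in A549, and 5.92 ± 0.50 in H460 (SD, n = 2). A549 minus H460 was 1.21 ± 0.16 (SE) on the log2 scale (adjusted p = 0.00205), and A549 minus H1299 was -1.52 ± 0.16 (adjusted p = 0.000637, edgeR's quasi-likelihood test). The TIPARP levels of the 3 cell lines did not overlap, and how many of all genes share that was not counted. Across all genes, 38.2% passed for A549 minus H460 and 48.9% for A549 minus H1299.

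CYP1A1 was also highest in H1299, at 2.24 ± 0.086 TPM, against 0.144 ± 0.075 in A549 and 0.0783 ± 0.0031 in H460 (SD, n = 2). H1299 minus H460 was 4.38 ± 0.43 (SE) on the log2 scale (adjusted p = 0.000462) and A549 minus H1299 was -3.89 ± 0.43 (adjusted p = 0.000801, edgeR's quasi-likelihood test). H460 and A549 did not differ beyond their spread, at 0.48 ± 0.47 for A549 minus H460 (adjusted p = 0.452). The cell line with the least AHR and CYP1B1 thus had the most CYP1A1 and TIPARP, which is a description over 3 cell lines.

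PDCD6 and ARNT did not pass between the 3 cell lines, at 86.0 to 108.95 TPM for PDCD6 and 11.7 to 12.6 TPM for ARNT as means of 2 libraries. The PDCD6 libraries of H460 lay lower in TPM, at 85.2 and 86.8 against 106 to 111 in the other lines, whereas the scaled counts on which the test runs overlapped. Their adjusted p-values by edgeR's quasi-likelihood F-test were 0.889 and 0.251. For PDCD6 the log2 differences were between -0.02 and 0.07, each with an SE of 0.13, and for ARNT the farthest was -0.29 ± 0.16 (SE). AHRR was low in all cell lines, at 0 to 1.81 TPM per library, and its adjusted p in the same test was 0.175, which became 0.0330 without H460. The AHRR counts behind both values include the si-MALAT1 libraries, where reads of shared exons can be assigned to PDCD6-AHRR. The part of that assignment was not tested.

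PDCD6-AHRR was read in only 1 library per cell line, so its levels are described and not compared by a test. After si-MALAT1 they were 1.45 TPM in H1299, 0.337 in A549, and 0.174 in H460. Of the calls between cell lines, that of CYP1A1 rested on H1299, with an adjusted p of 0.713 without it in edgeR's quasi-likelihood F-test.

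**Figure D3:**
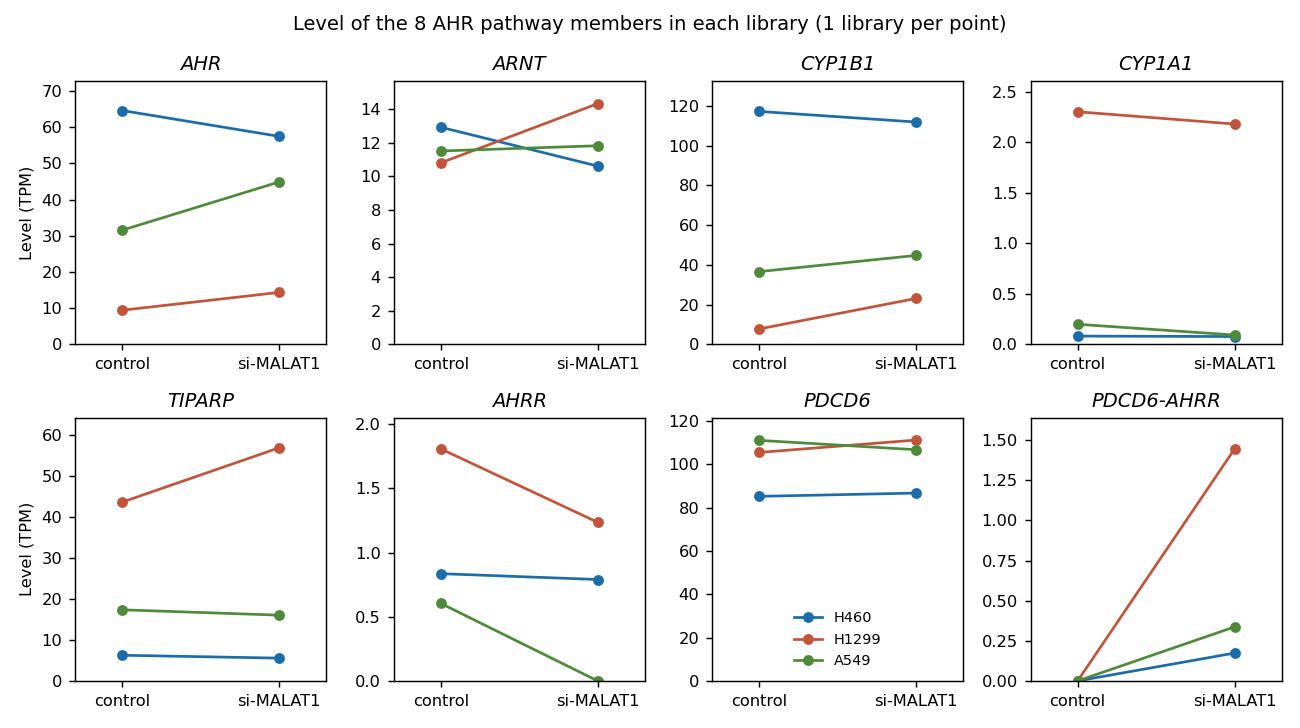
Each panel gives the TPM of 1 member (vertical axis, linear from 0) in the control and si-MALAT1 library of H460, H1299, and A549, with a line joining the pair of a cell line. For AHR, CYP1B1, and TIPARP the cell lines stay apart in both conditions. That pattern was not counted over all genes, of which 64.3% passed edgeR's F-test between cell lines. PDCD6-AHRR sits at 0 in the controls and at 0.174 to 1.45 TPM after si-MALAT1.

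The genes whose profile over the 6 libraries was nearest to that of AHR, by Euclidean distance of centred log2 scaled counts among 15902 genes, were TMEM106A, CCDC68, PPIF, CD99, and FOXO1. Their distances were 0.339 to 0.466, with Pearson's r of 0.987 to 0.994 over 6 libraries that share cell line pairs. As a description, FOXO1, a forkhead transcription factor, had 1543 and 1612 reads in the H460 pair, 287 and 420 in the H1299 pair, and 540 and 706 in the A549 pair.

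Beyond the members, 43 genes of the pathway in 6 lists were examined, of which 31 were read in all 6 libraries. The lists were chosen with earlier results of these data known. Their p-values and shares after si-MALAT1 are therefore descriptive and not independent support for a change of the pathway. In edgeR's quasi-likelihood test of si-MALAT1 against control, with cell line as a block, 0 of the 38 pathway genes tested passed a Benjamini-Hochberg adjusted p of 0.05, 8 had an unadjusted p under 0.05 beside 15% of all genes, and across all genes 1 gene passed, MALAT1 itself (adjusted p = 0.0381), or 0.00523% of 19122. DESeq2 called 6 of 36 pathway genes, with ARNTL2, NRIP1, and UGT1A6 higher and NCOA3, SLC7A5, and STC2 lower, beside 8.41% of all genes called by DESeq2. By sign alone 8 of the 31 were higher and 9 lower in all 3 cell lines, beside 21.4% and 18.8% of all genes. None passed a fold of 1.5 the same way in all 3, beside 2.47% of all genes. The median log2 fold changes over the 31 genes were -0.11, 0.10, and -0.04 in H460, H1299, and A549, beside 0.02, 0.02, and 0.01 over all genes.

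In the cytosolic complex that holds AHR, the 5 genes stayed within a fold of 1.5 in every cell line. HSP90AA1, a chaperone, had log2 fold changes of -0.30, -0.06, and -0.23 in H460, H1299, and A549, and HSP90AB1 had -0.11, -0.10, and -0.07. The co-chaperone PTGES3 had 0.05, 0.04, and 0.13.

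Among 8 other bHLH-PAS factors, the family of AHR and ARNT, ARNTL2, a paralog of the clock factor ARNTL, had log2 fold changes of 0.65, 0.35, and 0.78, with counts of 1090 and 1619 in the H460 pair, 15903 and 18522 in the H1299 pair, and 1879 and 3557 in the A549 pair. Its adjusted p was 0.133 in edgeR's quasi-likelihood test. NPAS2 had -0.64, -0.0045, and -0.34, ARNT2 had 0.64, 0.33, and -0.12, and ARNTL had 0.13, 0.40, and 0.20.

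Among 9 cofactors of AHR and ARNT, NCOA3, a coactivator, had 11067 and 6008 reads in the H460 pair, 7100 and 4476 in the H1299 pair, and 23308 and 10553 in the A549 pair. This gave log2 fold changes of -0.80, -0.53, and -1.29, lower in 3 of 3 cell lines, with an adjusted p of 0.108 in edgeR's quasi-likelihood test and 7.88e-05 in DESeq2. NRIP1, a corepressor of nuclear receptors, had 0.68, 0.33, and 0.50 (adjusted p = 0.158, edgeR), and NCOA1, another coactivator, had 0.18, 0.56, and 0.42 (adjusted p = 0.247, edgeR). CUL4B, a scaffold of the ubiquitin ligase that AHR joins, had 0.02, 0.41, and 0.36.

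Of the 6 further enzymes of the AHR battery, 1 was read in all libraries. NQO1, a quinone reductase, had 131207 and 127626 reads in the H460 pair, 17378 and 13587 in the H1299 pair, and 112294 and 87101 in the A549 pair, at log2 fold changes of 0.04, -0.22, and -0.51. The other 5 had no read in at least 1 library, among them ALDH3A1, an aldehyde dehydrogenase, with 47313 and 43391 reads in the H460 pair, 0 and 18 in the H1299 pair, and 46949 and 40444 in the A549 pair. UGT1A6, which had 16 and 44 reads in H460, none in H1299, and 504 and 1265 in A549, shares exons with other genes of its cluster and its count is uncertain.

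Among 7 other reported targets, 4 were read in all libraries. SLC7A5, a transporter that brings tryptophan into the cell, had log2 fold changes of -0.54, -1.30, and -0.44, and STC2, a secreted glycoprotein, had -0.51, -1.12, and -0.37, both lower in 3 of 3 cell lines, with adjusted p-values of 0.157 and 0.155 in edgeR's quasi-likelihood test. NFE2L2, the regulator of the oxidative stress response, had -0.47, 0.10, and -0.14, and HES1, a Notch effector, had -0.10, -0.47, and 0.30.

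Of 8 genes that handle tryptophan and kynurenine, precursors of AHR ligands, 4 were read in all libraries. KYNU, which cleaves kynurenine, had 34655 and 33740 reads in H460 and 24026 and 27892 in A549, but 16 and 41 in H1299, and its log2 fold changes were 0.04, 1.42, and 0.07 in H460, H1299, and A549. AADAT, a kynurenine aminotransferase, had 0.20, 0.60, and 0.57, KYAT1 had -0.07, -0.52, and -0.32, and AFMID had 0.20, -0.20, and 0.19. IDO1 and TDO2, which start the pathway from tryptophan, had at most 10 and 82 reads.

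**Figure D4:**
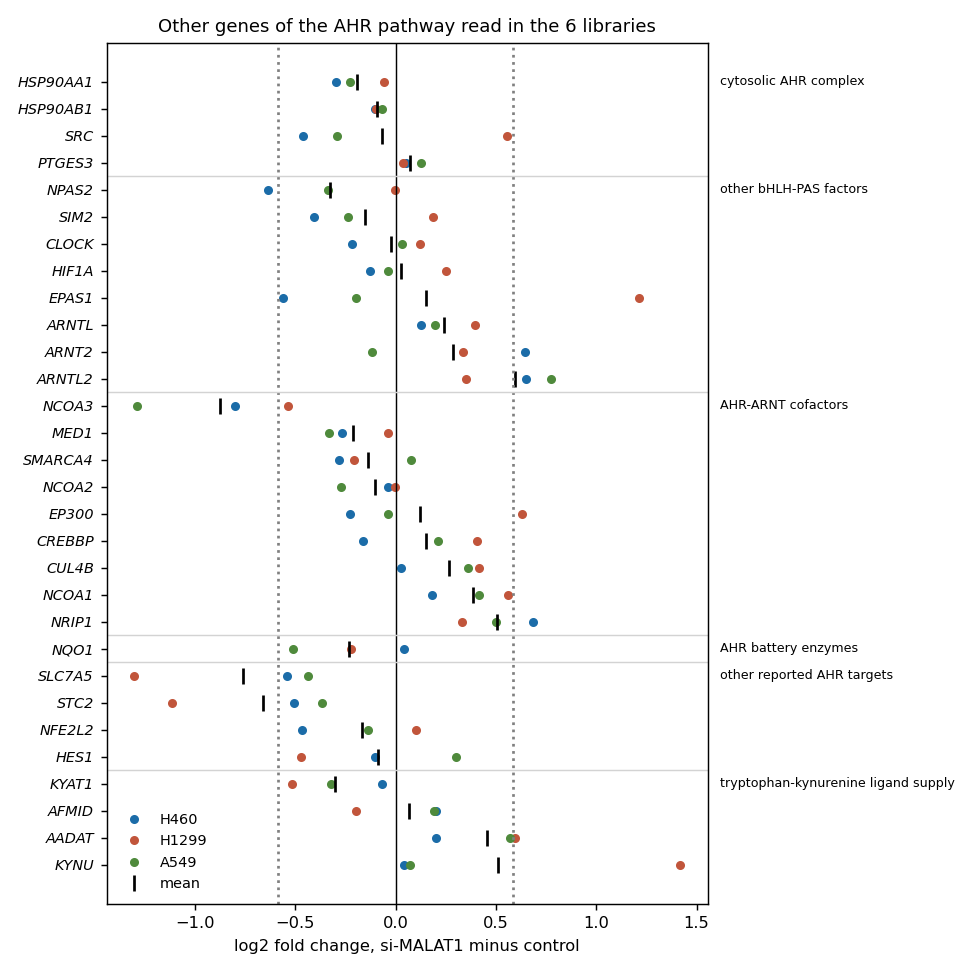
Points are log2 fold changes (si-MALAT1 minus control, horizontal axis) of pathway genes read in the 6 libraries, with 1 not drawn, in H460, H1299, and A549, ordered within their list by the mean, which is the vertical tick, with dotted lines at a fold of 1.5. No gene has all 3 points beyond the same dotted line, and NCOA3 lies farthest to the left by its mean.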

How the data were processed

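RNA-seq data of 6 libraries were used, 1 control and 1 si-MALAT1 library from each line (H460, H1299, and A549), grouped by the treatment label. Per the methods and the submitters' processing notes, RNA was depleted of ribosomal RNA, libraries were made with a stranded kit, and reads were demultiplexed with bcl2fastq 2.20.0, trimmed with Trimmomatic, aligned with HISAT2 2.1.0, and assigned to genes with StringTie, for which the notes give 1.3.4b and the methods another version. Both hg19 and GRCh38 are named in the notes, and the deposited annotation is on GRCh38. The deposited counts are whole reads per gene that the authors did not normalize, and the deposited TPM values were scaled by the authors for length and depth. The 6 FPKM columns and 18 columns of other samples were not used. Whether counting used strand is not given in the sources used here.

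The members and gene lists were chosen with earlier results of these data known. Members were therefore described after si-MALAT1 and not tested: in each cell line the control was subtracted from si-MALAT1 on the scale of log2(RLE-scaled count + 1), with exact Clopper-Pearson 95% intervals, which cover counting error only. Other tests used edgeR 4.0.16 (quasi-likelihood, TMM, filterByExpr, Benjamini-Hochberg adjustment over all genes) with cell line and treatment as terms, which left 2 residual degrees of freedom, and DESeq2 1.42.0 as an alternative. Adjusted p-values that DESeq2 withheld were left out. The cell line is the pairing, since each pair of libraries comes from the same line. Pathway genes were named as up to 4 per list with the greatest mean log2 fold change in size among those read in all 6 libraries, and genes given beyond that rule (UGT1A6, ALDH3A1, IDO1, TDO2, FOXO1, SLC9A3, and others) were picked after their values were seen. Total counts were 42506818 to 68515992 per library. Scripts were tested on simulated counts. Some genes of the fixed lists are not reported here.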

Additional observations from a re-analysis of the deposited data

Results flagged for a closer look

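AHR, ARNT, and TIPARP each had log2 fold changes of opposite sign in different cell lines, with exact 95% counting intervals that excluded 0. AHR was higher after si-MALAT1 in H1299 and A549 and lower in H460, with a gap of 0.57 between H1299 and H460. ARNT was higher in H1299 and lower in H460, with a gap of 0.53. TIPARP was higher in H1299 and lower in A549, with a gap of 0.41. None of these gaps was tested, since there was 1 library per line and condition, and the H460 value of AHR, -0.03, was small beside the other 2.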

How the results depend on the processing

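MALAT1 was the 1 gene called by edgeR after si-MALAT1. The count was 0 with no filter on low counts, 0 without the replicate block, which is the cell line pairing, and 1140 with DESeq2, and it was 0 to 163 with 1 cell line left out, the 163 being without H460 and the 0 without either H1299 or A549. The pathway genes called went from 0 to 6 with DESeq2 and stayed at 0 under the other settings, with 8 at an unadjusted p under 0.05 in edgeR. The cause of the gap between the tools was not tested. The 440 genes past a fold of 1.5 in 3 cell lines became 154 on log2(TPM + 1), 770 with no filter on zeros, and 9 at a log2 fold change of 1.5, and were 868 (without A549), 1164 (without H1299), and 1327 (without H460) with 1 cell line left out, which asks for agreement of fewer lines. With no filter on zeros 1 member passed, PDCD6-AHRR. The log2 fold change of AHRR in H1299 went from -0.61 alone to 0.53 with PDCD6-AHRR reads added, and the cause was not tested. The count of genes that differ between cell lines, 12305, stayed within 1.5 times under every alternative run, from 8663 to 12631. The members' mean fold changes kept their sign in 34 of 37 alternatives and changed it in 3, which were PDCD6 without H460 (-0.016), ARNT without H1299 (-0.060), and TIPARP without H1299 (-0.060), each by less than the SD over cell lines. Adjusted p-values of 7 members between cell lines kept their side of the threshold in 47 of 49 alternatives, the others being CYP1A1 without H1299 and AHRR without H460.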

Other observations

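Among the marker genes, COL1A1, a collagen gene typical of fibroblasts, had 175 and 472 reads in the H460 pair, 38 and 144 in the H1299 pair, and 267 and 469 in the A549 pair, with more reads after si-MALAT1 in 3 of 3 cell lines. By sign, 21.4% of all genes read in the 6 libraries were higher in all 3. Of the other fibroblast markers, COL1A2 had 5 reads in the H1299 si-MALAT1 library and 0 elsewhere. DCN had 14 and 30, 19 and 26, and 0 and 0 reads in the same order of pairs. EPCAM, an epithelial adhesion molecule, had 30 and 73, 23 and 43, and 196 and 485 reads in the same order. In A549 the keratin KRT8 had 113159 and 56171 reads and KRT18 had 144327 and 68068. The epithelial markers CDH1, with 4693 and 7373 reads, and KRT19, with 44 and 121, went the other way there, as did EPCAM. These genes were picked after their values were seen and were not tested.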
